A study of Mus musculus with 12 samples.

Results

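The locus on mouse chromosome 17 that holds lincRNA-p21 (gene symbol Trp53cor1) and its neighbour Cdkn1a was described by the peaks of 2 histone marks. Members were all peaks of the 8 deposited peak lists that overlapped the window from 29190000 to 29240000 (build mm9) by at least 1 bp. They numbered 24 of 128880 peaks, 14 of them peaks of trimethylated lysine 4 of histone H3 (H3K4me3) and 10 of trimethylated lysine 27 (H3K27me3). The window was divided by approximate gene positions, lincRNA-p21 from 29190000 to 29220000 with its start near 29216000 and Cdkn1a from 29224000 to 29240000. No mm9 annotation was used, so exons, introns and exact gene ends are not given.

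The libraries came from primary mouse embryonic fibroblasts on a mixed background labelled 129/B6, which all groups shared. The 4 conditions were wild-type cells (lincRNA-p21+/+, WT) and lincRNA-p21-/- cells (knockout, KO), each either mock treated or given 0.5 mM doxorubicin, as the dose is labelled, for 24 h. Doxorubicin is a DNA-damaging drug, and whether the labelled unit is a slip for micromolar could not be settled from the sources used here. Each mark and condition had 1 library, so no difference below has a replicate check, no p-value was computed, and each may also hold library differences in depth or enrichment. The stretch deleted in KO cells and the number of embryos behind each culture are not given in the sources used here. Fibroblast identity was not checked, because the lists carry no gene names and no expression values.

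LincRNA-p21 is a long noncoding RNA transcribed from a promoter that p53 activates after DNA damage, and it lies upstream of Cdkn1a, in the opposite orientation. Cdkn1a encodes p21, an inhibitor of cyclin-dependent kinases that p53 induces to hold damaged cells at the G1/S checkpoint. H3K4me3 marks promoters that are active or ready for activity, and a wide H3K4me3 domain is often found at highly transcribed genes. H3K27me3 is deposited by Polycomb repressive complex 2 and marks silenced genes, and places that carry both marks are called bivalent. The series title puts the question whether lincRNA-p21 acts on Cdkn1a in cis and on Polycomb target genes.

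Cdkn1a has 2 promoter entries in the RefSeq promoter table (GRCm38.p6, 250 bases before to 50 after each start, plus strand), and Trp53cor1 has none there. Both are shown because Cdkn1a is the p53 target whose H3K4me3 is described below. They were not placed on the mm9 peaks, since the builds differ. Capitals mark a p53 response element in the upstream entry, chr17:29090729-29091028, and the letters TATAA in the downstream entry, chr17:29093519-29093818.
Cdkn1a upstream start: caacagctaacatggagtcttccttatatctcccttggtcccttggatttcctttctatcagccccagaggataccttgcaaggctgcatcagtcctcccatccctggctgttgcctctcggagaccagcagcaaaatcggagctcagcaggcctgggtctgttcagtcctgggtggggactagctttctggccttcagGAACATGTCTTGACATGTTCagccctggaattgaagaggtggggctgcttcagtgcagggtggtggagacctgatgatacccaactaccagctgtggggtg
Cdkn1a downstream start: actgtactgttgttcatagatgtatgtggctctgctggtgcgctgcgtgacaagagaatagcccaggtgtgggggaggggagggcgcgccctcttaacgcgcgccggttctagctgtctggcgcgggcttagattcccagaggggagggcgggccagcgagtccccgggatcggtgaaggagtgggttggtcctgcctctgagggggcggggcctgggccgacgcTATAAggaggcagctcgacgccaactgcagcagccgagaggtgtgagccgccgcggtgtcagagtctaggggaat
The marked p53 response element is a run of 20 bases made of 2 adjacent copies of the 10-base p53 consensus, with 1 mismatch in all. The search took a pair of copies up to 13 bases apart with at most 1 mismatch outside the core C and G. The consensus reads the same on both strands. Such a pair was found in 206 of 32851 RefSeq promoters of the same length (0.627%). The upstream entry holds a further overlapping match and the downstream entry holds none. That further match is longer and pairs the 2 exact copies of the consensus in the upstream entry. It is left in lower case because the shortest match was marked. TATAA, searched on both strands, was found in both Cdkn1a entries and in 24.9% of all promoters, and CCAAT in neither of them and in 37.4% of all. The upstream entry has 2 CG dinucleotides and the downstream entry 23, against a median of 7 over all promoters. A match is a description of letters and does not show that a factor was bound.

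H3K4me3 was listed at 3 places of the window in each of the 4 conditions, namely the far end of lincRNA-p21 (away from Cdkn1a), its start, and Cdkn1a. H3K27me3 was listed at the far end in all 4 conditions, at the start in both KO lists, in the middle of lincRNA-p21 in both mock lists, and at Cdkn1a in none. Of the 14 H3K4me3 peaks 13 overlapped a peak in each of the 3 other lists of the mark, and of the 10 H3K27me3 peaks 4 did. Peaks of a mark that overlapped between its lists were joined into regions, and over the genome 78.8% of H3K4me3 and 26.1% of H3K27me3 regions were found in 4 lists. Each peak carries the score of the authors' peak caller, -10 times the log10 of its p-value. The score has a floor near 80 in the deposited lists and a pile-up at 3100, and it is used here to rank peaks within a list and not to compare lists.

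**Figure D1:**
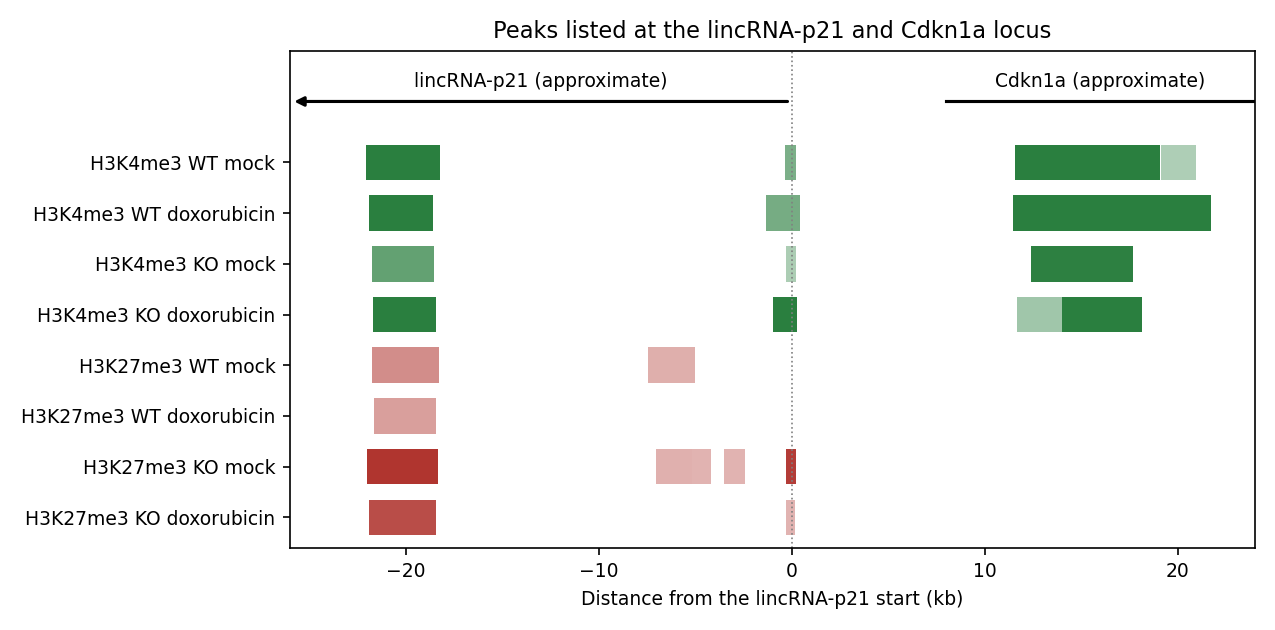
Peaks of the 8 lists by distance from the approximate lincRNA-p21 start (x axis, kb), 1 row per mark and condition. Bars are peaks, darker with a higher score, the arrow is lincRNA-p21 with its direction and the line is Cdkn1a. The H3K4me3 bar at the start is longer in both doxorubicin rows, the H3K4me3 bar over Cdkn1a is shorter in both KO rows, and no H3K27me3 bar lies over Cdkn1a.

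The start of lincRNA-p21 had an H3K4me3 peak in every condition, including both KO lists. Whether the deletion removed this place is not given in the sources used here, so the peak does not check the genotype labels. In WT mock cells the peak was 582 bp wide, from 29215655 to 29216236, with a score of 1279 and rank 8296 of 14897 peaks. In WT doxorubicin cells it was 1779 bp wide, from 29214669 to 29216447, with a score of 1405 and rank 8703 of 16477. In KO mock cells it was 508 bp wide, from 29215700 to 29216207, with a score of 175 and rank 12666 of 14326. These 3 peaks thus stood in the lower part of their lists by score. In KO doxorubicin cells the peak was 1270 bp wide, from 29215014 to 29216283, and its score was at the pile-up of 3100, shared by 5058 of 15095 peaks. Within each genotype the doxorubicin peak was the wider one, and the 2 mock peaks nearly coincided, with starts 45 bp apart and ends 29 bp apart.

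The H3K4me3 peak at the lincRNA-p21 start was 3.06 times as wide with doxorubicin as with mock treatment in WT cells and 2.5 times as wide in KO cells. Over the 13107 H3K4me3 regions found in the 4 lists the median ratio was 0.919 in WT and 1.05 in KO. In WT cells 0.671% of regions were more than 1.5-fold wider with doxorubicin, and the lincRNA-p21 start had the second highest ratio (rank 2). In KO cells 3.12% of regions were more than 1.5-fold wider, and the start ranked 15. The 2 comparisons share no library. Past 1.5-fold wider in both were 9 of the 13107 regions, the lincRNA-p21 start among them. A ratio of at least 2.5 in both genotypes was found for 1 region, the start. That cutoff is the start's own KO ratio, so this count is a description and does not set the region apart. Most of the added width lay on the side of the transcribed stretch, 986 bp against 211 bp on the opposite side in WT cells and 686 bp against 76 bp in KO cells. Between the genotypes the widths were closer, with a KO over WT ratio of 0.873 in mock and 0.714 in doxorubicin-treated cells, neither past 1.5-fold. The mock peaks are among the narrowest of their lists, narrower than 99.8% of WT mock and 99.4% of KO mock peaks, so that a given number of added bases makes a large ratio here. The KO mock peak also scored above only 11.6% of its list. At or over the pile-up stood 8.05% of KO mock and 35.4% of KO doxorubicin H3K4me3 peaks. The mock peaks and the H3K27me3 peaks listed here in KO cells nearly coincided, with starts within 60 bp and ends within 52 bp. Whether the narrow mock widths hold in the reads and inputs was not tested.

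**Figure D2:**
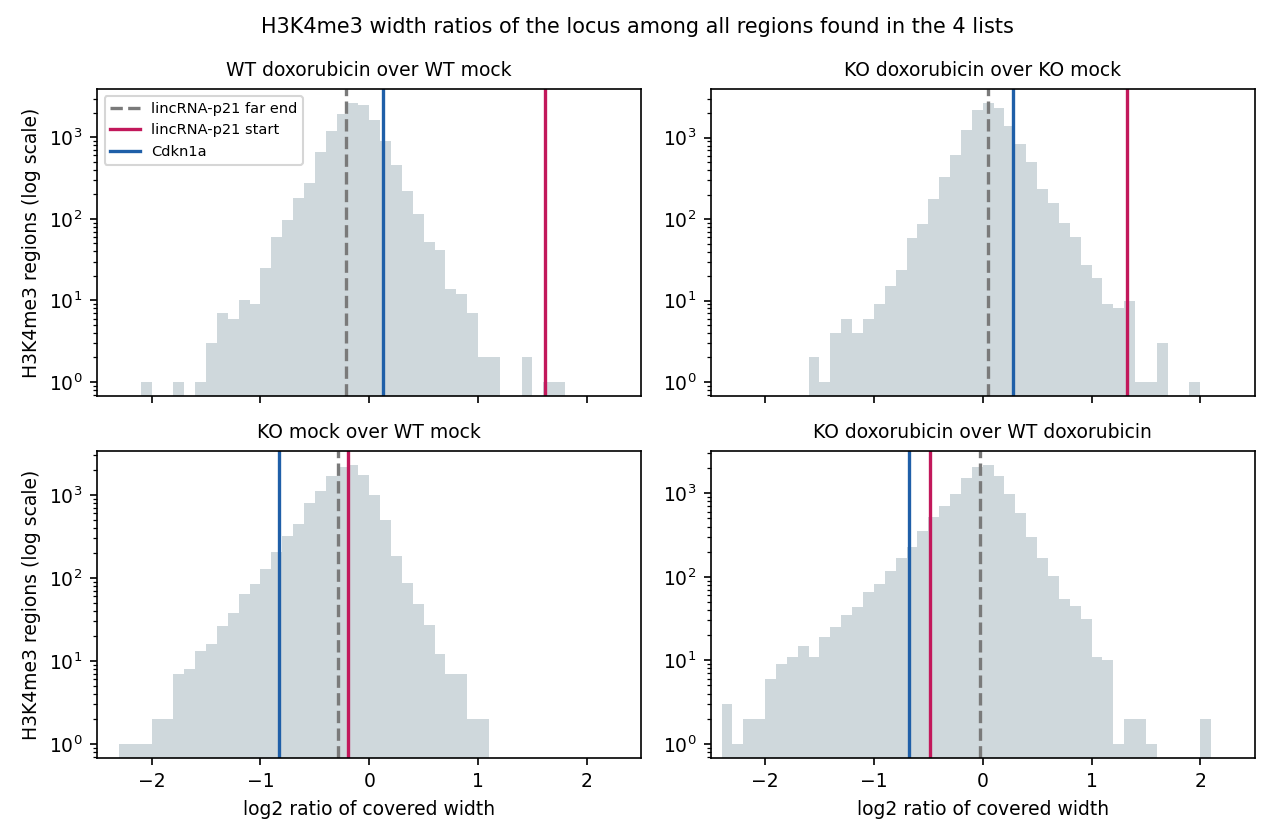
Histograms of the log2 ratio of covered width (x axis) over the 13107 H3K4me3 regions found in the 4 lists, with the number of regions on a logarithmic y axis, 1 panel per comparison. Vertical lines are the 3 H3K4me3 places of the locus. The line of the lincRNA-p21 start stands at the right edge of both doxorubicin panels (1.61 in WT, 1.32 in KO), and the Cdkn1a line stands left of the bulk in both KO over WT panels (-0.83 and -0.68).

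H3K27me3 at the lincRNA-p21 start was listed in KO cells only. The KO mock peak was 530 bp wide, from 29215682 to 29216211, and its score of 2937 ranked 75 of 16580. The KO doxorubicin peak was 470 bp wide, from 29215715 to 29216184, and its score of 99.5 ranked 13518 of 17828. The 2 peaks lay at the same place, with starts 33 bp apart and ends 27 bp apart, but the first scored above 99.5% of its list and the second above 24.1%. This presence in both KO lists and neither WT list was shared by 582 of 24298 H3K27me3 regions (2.4%). In KO against WT mock cells 25.5% of KO mock H3K27me3 peaks had no overlapping WT peak, and in doxorubicin-treated cells 32.2% of KO peaks had none.

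The shape of the KO mock peak was uncommon. Only 22 of the 16580 peaks of its list were as narrow or narrower, their median score was 86.8, and the next highest score among them was 147. The other peaks with a score as high were at least 3688 bp wide, the narrowest of them being the H3K27me3 peak at the far end of lincRNA-p21. By score per base it ranked 1 of the list. Its edges almost matched those of the H3K4me3 peak of KO mock cells, 18 bp apart at the start and 4 bp at the end, and the shared bases made up 95.8% of the joint width. Among the 2061 overlapping pairs of an H3K4me3 and an H3K27me3 peak in that condition the median was 22.4%, and 1 pair had a larger share. The H3K4me3 peak of WT mock cells at the same place also ranked 1 by score per base in its own list. Peaks with a score out of proportion to their width were thus listed here for H3K4me3 in WT mock and for H3K27me3 in KO mock cells. By score per base the H3K4me3 peak of KO doxorubicin cells ranked 25 in its list. The other peaks at the start ranked lower, at 7859 (H3K4me3, WT doxorubicin), 10498 (H3K4me3, KO mock) and 1034 (H3K27me3, KO doxorubicin). The input libraries were not analysed here.

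**Figure D3:**
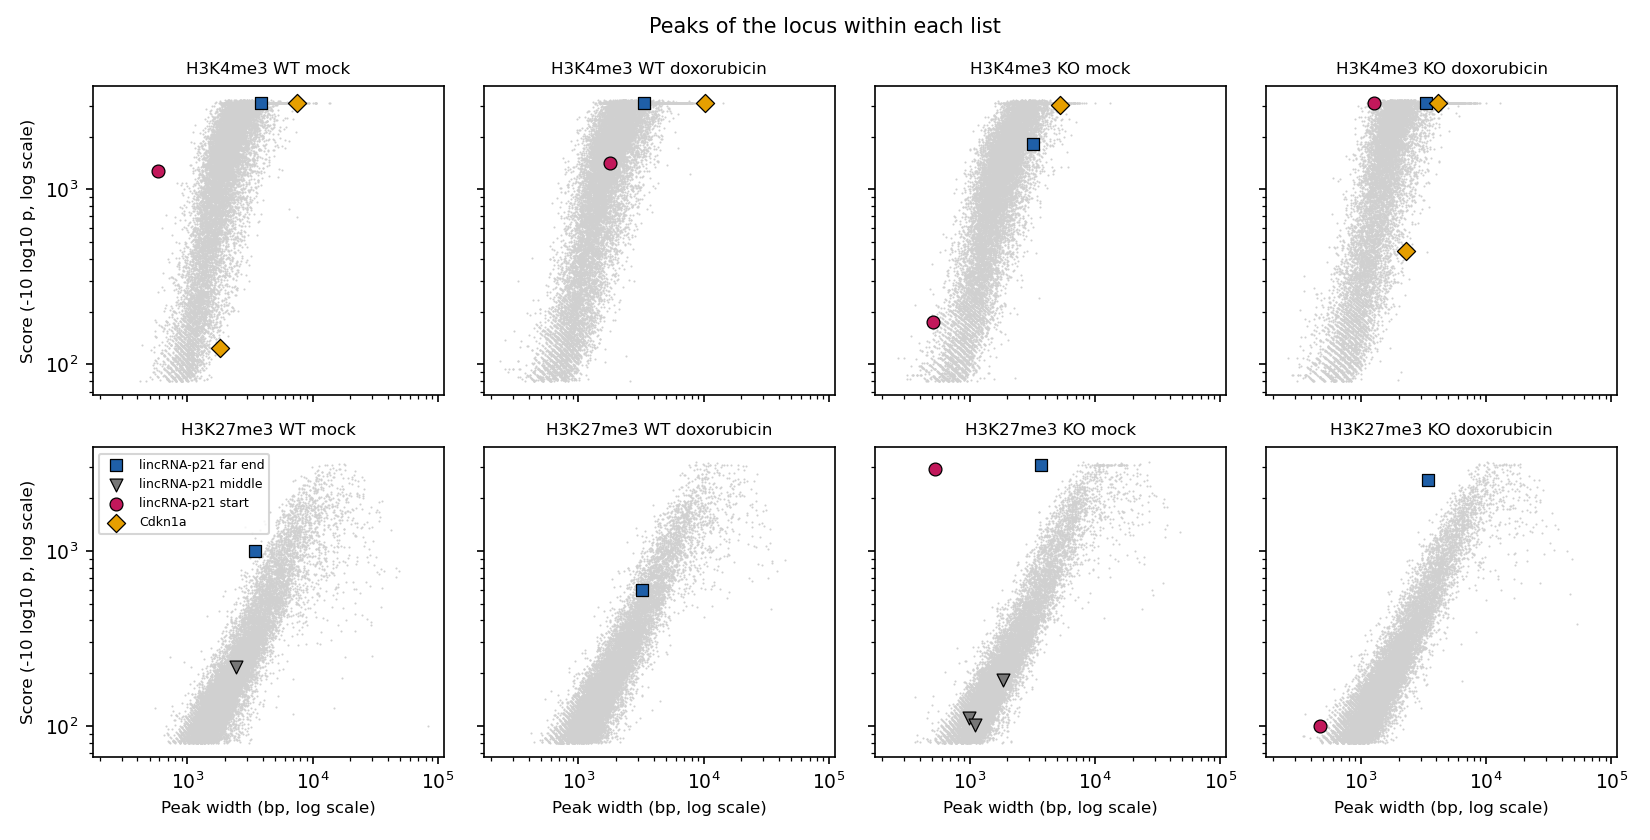
Score (y axis, -10 log10 p, logarithmic) against width (x axis, bp, logarithmic) of every peak in each of the 8 lists (grey), with the peaks of the locus as coloured markers. The circle of the lincRNA-p21 start lies left of the grey cloud in H3K4me3 WT mock and, furthest, in H3K27me3 KO mock (530 bp, score 2937), and the squares of the far end lie left of the cloud in both H3K27me3 KO panels.

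The peak numbers give a view of what lies under the score floor. Peaks carry the caller's running number, which follows the order along each chromosome, and 6.83 to 10.3% of numbers were missing in the H3K4me3 lists and 39.0 to 47.2% in the H3K27me3 lists. If a missing number is a peak left out for its score, then a stretch with no missing number held no called peak. In WT doxorubicin cells 0 numbers were missing between the H3K27me3 peaks that end at 29197566 and start at 29254708, a stretch that holds the lincRNA-p21 middle and start and Cdkn1a. In KO doxorubicin cells 0 were missing on either side of the peak at the start, from 29197563 up to 29267637. In WT mock cells 2 numbers were missing between 29211002 and 29299818, so that a low-scoring peak at the lincRNA-p21 start or at Cdkn1a may have been left out there. In KO mock cells 2 were missing between 29216211 and 29265979, the stretch that holds Cdkn1a. The absence of H3K27me3 at Cdkn1a thus reached below the score floor in both doxorubicin lists, on that reading of the numbers, and was not separable from it in the mock lists.

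The middle of lincRNA-p21 carried H3K27me3 in mock-treated cells of both genotypes, with scores of 101 to 216. WT mock cells had 1 peak of 2437 bp, from 29208566 to 29211002, with a score of 216 and rank 5739 of 16160, above 64.5% of its list. KO mock cells had 3 peaks, from 29208971 to 29210823 (1853 bp, score 183), from 29210847 to 29211839 (993 bp, score 112) and from 29212468 to 29213573 (1106 bp, score 101). The first of these stood above 60.8% of its list by score, and the others above 31.7% and 23.3%. None had a counterpart in the doxorubicin list of its genotype, where 35.4% of WT mock and 34.1% of KO mock peaks over the whole lists had none. Of the window's peaks, 1 of 2 in WT and 3 of 5 in KO were lost in this sense. Presence in both mock lists and neither doxorubicin list was seen for 921 of 24298 H3K27me3 regions (3.79%). The third KO mock peak and the peak at the start were the 2 window peaks present in KO mock and absent in WT mock cells. With doxorubicin 0 of 1 window peaks of H3K27me3 in WT and 0 of 2 in KO were gained, against 29.3% and 35.3% of the whole lists. In KO against WT 0 of 2 were lost in mock and 0 of 1 in doxorubicin-treated cells, against 36.3% and 35.3% of the whole lists. With so few window peaks these zeros cannot be told apart from the whole-list shares. In doxorubicin-treated cells 1 of the 2 KO window peaks, the one at the start, was absent in WT. No H3K4me3 peak was listed in the middle in any condition.

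The far end of lincRNA-p21 carried both marks over the same 3 to 4 kb in each condition. In WT cells the H3K4me3 peak was 3878 bp wide with mock and 3344 bp with doxorubicin treatment, and in KO cells 3179 bp and 3293 bp. Its score was at the pile-up of 3100 in 3 lists and 1826 in KO mock cells, where it ranked 4283 of 14326. The H3K27me3 peak measured 3487 bp and 3215 bp in WT and 3688 bp and 3465 bp in KO cells, mock first. Over the 8 lists the starts lay within 435 bp, from 29193917 to 29194352, and the ends within 378 bp, from 29197416 to 29197794. The place was thus listed with close edges for both marks and in all conditions, and 0 of its width ratios passed 1.5-fold for either mark in the 4 comparisons. Of all H3K4me3 regions, 3.36% were past 1.5-fold narrower with doxorubicin in WT and 1.05% in KO cells, and 0.244% in mock and 2.15% in doxorubicin-treated cells were that much wider in KO. For H3K27me3 such changes were more common. With doxorubicin 4.31% of its regions were past 1.5-fold wider and 24.1% narrower in WT, and 11.3% and 15.9% in KO cells. In KO against WT these were 3.57% and 27.1% in mock and 9.6% and 17.6% in doxorubicin-treated cells.

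Overlap of the marks was far larger at the far end than at most places that carry both. The shared bases made up 89.9% of the joint width with mock and 87.7% with doxorubicin treatment in WT cells, and 86.2% and 94.4% in KO cells. The median over all overlapping pairs was 21.1 to 23.8%, and 0.148 to 0.631% of pairs had a larger share. Overlap with H3K27me3 of the same condition was found for 12.0 to 16.3% of H3K4me3 peaks in the whole lists. In the window it was found for 1 of 4 with mock and 1 of 3 with doxorubicin treatment in WT cells, and for 2 of 3 and 2 of 4 in KO cells. The far end was the shared one in WT cells, and the start was the other in KO cells. Peak lists from a population of cells do not show whether both marks sat on the same chromosomes.

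The H3K27me3 peak of the far end stood high within both KO lists. Its score was 3100 in KO mock cells, where it shared rank 10 of 16580 with the other peaks at that value, 50 in all, and 2547 in KO doxorubicin cells (rank 77 of 17828). In WT mock cells it was 1002 (rank 987 of 16160) and in WT doxorubicin cells 596 (rank 1968 of 17517). By score per base the peak ranked 2 with mock and 1 with doxorubicin treatment in KO cells, and 35 and 1172 in WT cells. In KO mock cells the peak ranked 1 by that measure was the one at the lincRNA-p21 start, which ranked 75 by score. Score per base was added after the values had been seen, so these places in the list are a description only. Scores depend on depth and enrichment of each library, and these ranks are not a measure of change between lists. In the RefSeq gene table (GRCm38.p6, used for gene order alone) another noncoding gene, Gm41556, overlaps Trp53cor1, and whether the far-end peaks belong to it was not determined.

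Cdkn1a carried a wide H3K4me3 domain that was narrower in KO cells under both treatments. In WT mock cells a peak of 7556 bp, from 29227550 to 29235105 with a score of 3100, was followed after 23 bp by a peak of 1817 bp, to 29236945, with a score of 124. In WT doxorubicin cells a single peak of 10258 bp, from 29227490 to 29237747 with a score of 3100, covered the place. Only 3 of the 16477 peaks of that list were wider (rank 4 by width). In KO mock cells a single peak of 5278 bp, from 29228393 to 29233670, had a score of 3037 and rank 109 by width of 14326. In KO doxorubicin cells a peak of 2302 bp, from 29227697 to 29229998 with a score of 446, was followed after 31 bp by one of 4109 bp, to 29234138, with a score of 3100. The covered width was thus 9373 bp and 10258 bp in the WT lists and 5278 bp and 6411 bp in the KO lists.

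Covered width at Cdkn1a in KO over WT cells was 0.563 in mock and 0.625 in doxorubicin-treated cells. The median over all regions was 0.854 and 0.986, and 11.1% and 6.78% of regions were more than 1.5-fold narrower in KO cells. The ratio at Cdkn1a was lower than in all but 4.1% of regions in mock and 5.0% in doxorubicin-treated cells, and 429 of 13107 regions (3.27%) were past 1.5-fold narrower in both comparisons. The narrowing at Cdkn1a was therefore in the tail of a difference that many regions showed. Relative to the median region the ratios were 0.659 and 0.634. With the widest single peak in place of all covered bases the mock ratio was 0.699, short of 1.5-fold. The WT mock domain was split into 2 peaks, and the one left out scored 124 (rank 14045 of 14897). The mock call thus depended on counting that low-scoring peak. By the widest single peak the doxorubicin ratio was 0.401, since in doxorubicin-treated cells the KO domain was split. Most of the missing width lay at the high-coordinate edge, downstream for a plus-strand gene, where the KO domain ended 3275 bp earlier in mock and 3609 bp earlier in doxorubicin-treated cells. At the low-coordinate edge it began 843 bp and 207 bp later. The mock value at the high-coordinate edge includes the WT mock peak of 1817 bp, whose score of 124 stood above only 5.72% of its list. Without that peak the WT mock domain ended at 29235105, and the KO mock domain at 29233670. The 1817 bp peak had no counterpart in KO mock cells, while 9.32% of all WT mock peaks had none. Every other H3K4me3 peak of the window had a counterpart in each of the 4 comparisons. Over the whole lists, 8.25% of peaks in WT and 8.84% in KO cells were gained with doxorubicin, and 2.21% and 2.69% were lost. Gained in KO against WT were 1.94% in mock and 4.41% in doxorubicin-treated cells, and 11.9% were lost in the latter.

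As a ratio, covered width differed less between doxorubicin and mock treatment at Cdkn1a than at the lincRNA-p21 start. In bases this held in WT cells but not in KO cells. There the width went from 5278 to 6411 bp at Cdkn1a and from 508 to 1270 bp at the start. The ratio to mock at Cdkn1a was 1.09 in WT and 1.21 in KO cells, above the medians of 0.919 and 1.05, and neither was past 1.5-fold. Of all regions 11.4% had a higher ratio in WT and 16.7% in KO cells. The KO value depended on how a split domain was measured and was 0.779 for the widest single peak. The domain reached outward at both edges with doxorubicin, by 60 bp and 802 bp in WT and by 696 bp and 468 bp in KO cells. Among the 13107 regions, 13 were covered over a longer stretch than Cdkn1a with mock and 5 with doxorubicin treatment in WT cells, and 163 and 62 in KO cells.

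**Figure D4:**
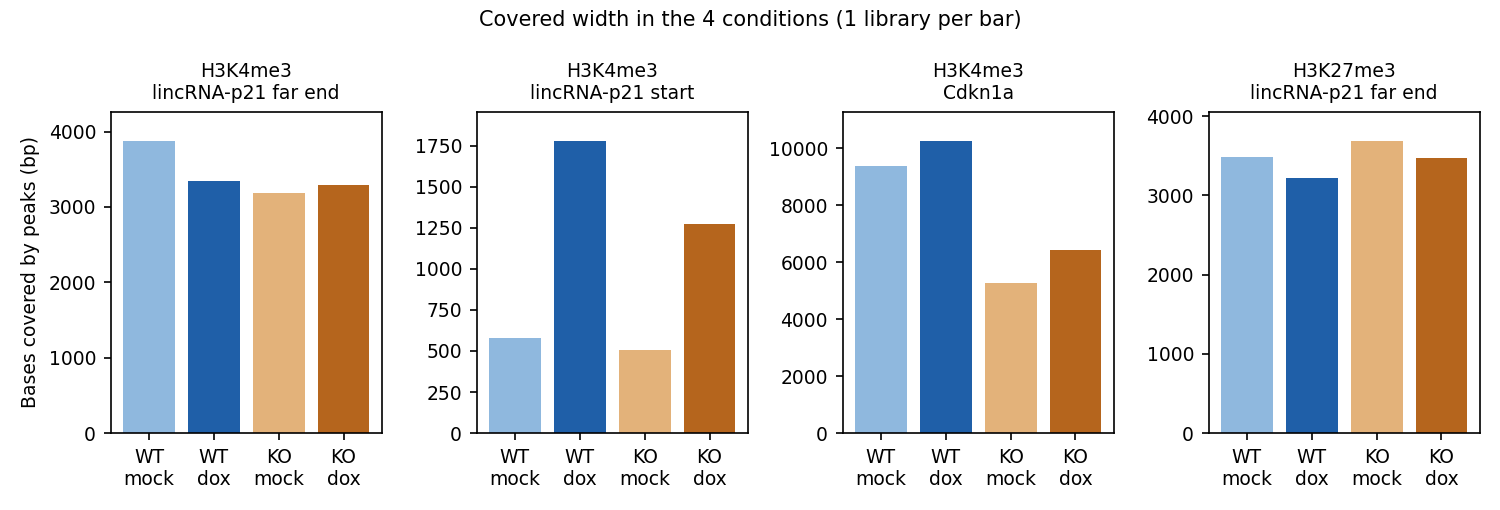
Bases covered by peaks (y axis, bp) in the 4 conditions, 1 library per bar, for the 3 H3K4me3 places and for H3K27me3 at the far end. H3K4me3 at the lincRNA-p21 start is wider in both doxorubicin bars (1779 and 1270 bp against 582 and 508 bp), H3K4me3 at Cdkn1a is narrower in both KO bars, and the far end varies little for either mark.

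No H3K27me3 peak overlapped the Cdkn1a interval in any list. In WT cells the nearest one lay 16547 bp from the H3K4me3 domain with mock and 16960 bp with doxorubicin treatment, and in KO cells 12181 bp and 11512 bp. The nearest in KO cells was the peak at the lincRNA-p21 start. The H3K4me3 domain of Cdkn1a and the H3K4me3 peak of the lincRNA-p21 start were separated by 11042 to 12185 bp, and no list joined them. In the window as a whole H3K4me3 covered 13833 bp with mock and 15381 bp with doxorubicin treatment in WT cells, and 8965 bp and 10974 bp in KO cells. H3K27me3 covered 5924 bp and 3215 bp in WT and 8170 bp and 3935 bp in KO cells, mock first. The KO doxorubicin total includes the 470 bp peak at the lincRNA-p21 start, whose score of 99.5 was near the floor. Such totals were not computed for other windows, so their differences have no background here.

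The H3K4me3 regions most like each place were sought by the distance of log2 covered widths over the 4 conditions, with 1 library each. The far end had close matches, at distances of 0.0342 for chr7:52239845-52243916, 0.0454 for chr2:128251953-128255973 and 0.0458 for chr2:120994553-120998403. The lincRNA-p21 start had none as near. Its nearest were chr4:129664435-129665859 (0.648), chr7:7161808-7162921 (0.856) and chr5:116102034-116103117 (0.962). For Cdkn1a they were chr4:154587884-154598144 (0.284), chr2:13494059-13503222 (0.318) and chr10:117139669-117148733 (0.343). Likeness in width over 4 values is a description, and the places share the library effects of the series.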

How the data were processed

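Chromatin immunoprecipitation with sequencing covered 12 samples, 8 of them libraries of H3K4me3 or H3K27me3 and 4 of them input libraries, which were not analysed here. Cells were fixed in 1% formaldehyde for 10 min and sheared by sonication to pieces of 300 to 500 bp, as the labels' protocols state. Per the submitters' processing notes the tools were Bowtie 0.12.7 and MACS 1.4.2 and the build was mm9. The deposited score is -10 times the log10 of the peak's p-value, per the file headers, and other deposited values are positions. Starts were taken to count from 0 and are printed counting from 1. Read depth is unknown, since the lists hold no counts. The members, the likeness rule (the 3 nearest regions) and the alternatives were chosen with earlier results of these data known. All peaks of the window and the 2 member genes are named by rule. The counts of patterns, the score per base, the edge distances and the peak numbers were added after the values had been seen. A width ratio past 1.5-fold in either direction was called, with no test. P53 target genes, a planned list, were not run, since no mm9 annotation was used. The joining, overlap and ratio rules were tested on simulated lists built from 8860 peaks, and 7 of 7 gave back what was put in. Python 3.11.15, numpy 2.4.6, pandas 2.3.3 and matplotlib 3.10.9 were used.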

Additional observations from a re-analysis of the deposited data

Results flagged for a closer look

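The H3K4me3 peak at the far end of lincRNA-p21 moved in opposite directions with doxorubicin in the genotypes. Its covered width over mock was 0.862 in WT and 1.04 in KO cells. With 1 library per condition the difference was not tested. Divided by the median ratio of all regions, the values were 0.938 and 0.989, both below 1.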

How the results depend on the processing

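For 22 results, 9 settings were tried where they applied, 138 values in all, of which 126 stayed on their side of 1.5-fold (or, for counts and ratios not past it, within 1.5 times), 10 moved and 2 fell short of 1.5-fold. The wider H3K4me3 at the lincRNA-p21 start with doxorubicin kept its call under the 5 settings that gave a value, at 3.06 to 3.33 in WT and 2.39 to 2.5 in KO cells. It has no value in the upper 50% of each list by score, where 3 of the 4 peaks drop out. For Cdkn1a, the widest single peak and the upper 50% of each list both gave 0.699 for KO over WT in mock, 0.401 for KO over WT in doxorubicin-treated cells, against 0.625 over all covered bases, and 0.779 for doxorubicin over mock in KO cells. In the upper 50% also, 8 of the 9 H3K4me3 peaks left in the window were shared with the 3 other lists, against 13 of 14 without this cut. Gained H3K27me3 peaks were then 1 in KO against WT mock and 0 in KO against WT doxorubicin cells. A score of at least 100 likewise left 0 gained in KO against WT doxorubicin cells, since the KO doxorubicin peak at the start scored below it. Joining H3K27me3 peaks less than 3000 bp apart tied the KO mock peak at the start to the middle, so that 0 were lost with doxorubicin in KO and 0 gained in KO against WT mock cells. Extending the window by 25000 bp added a WT doxorubicin peak, giving 1 gained with doxorubicin in WT and 1 lost in KO against WT doxorubicin cells. No paired analysis was possible because each mark and condition had 1 library and no test was made.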

Other observations

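The surroundings of the locus differed in their marks on either side. In the 100000 bp on the lincRNA-p21 side each list had 3 H3K4me3 peaks and 0 H3K27me3 peaks, and in the 100000 bp on the Cdkn1a side 0 H3K4me3 and 2 to 5 H3K27me3 peaks. The H3K4me3 domain of Cdkn1a and the H3K27me3 of lincRNA-p21 thus lay next to flanks that each held a single mark. The 3 flanking H3K4me3 regions had KO over WT width ratios of 1.02, 0.725 and 0.932 in mock and 0.93, 0.732 and 1.08 in doxorubicin-treated cells, none of them as low as that of Cdkn1a. The region with the lowest of these ratios, from 29143248 to 29145820, was narrower in KO cells under both treatments, with 2481 bp against 1799 bp in mock and 2570 bp against 1881 bp in doxorubicin-treated cells. Of the flanking H3K27me3 regions, 1 of 4 was found in the 4 lists, from 29324614 to 29328374, covering 3098 bp, 3043 bp, 2272 bp and 2830 bp in WT mock, WT doxorubicin, KO mock and KO doxorubicin cells. Its highest score was 476, 241, 314 and 448 in that order, below that of the far end of lincRNA-p21 in each list. In the RefSeq gene table the neighbour of lincRNA-p21 away from Cdkn1a is Srsf3, a splicing factor gene, beyond Gm41556, and the next gene past Cdkn1a is Rab44, but no flanking peak was assigned to a gene.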
